A study of Mus musculus with 13 samples.

Results

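Pax2, Pax8 and Lhx1 were followed through the open chromatin around their genes in mouse kidney nuclei. Their members were the peaks that overlapped the body of one of the 3 genes or reached within 200 kb of its annotated start (mm10). This rule kept 261 of the 300755 peaks of the list, 96 around Pax2, 83 around Pax8 and 82 around Lhx1. Each peak is named by the distance of its centre from the start of its gene, with negative distances upstream and positive distances in the direction of transcription. The study profiled kidneys of newborn and adult mice by single nuclei ATAC-seq (snATAC-seq), an assay in which a transposase cuts accessible DNA and a barcode marks the nucleus of origin. The newborn group (P0) held 2 samples, labelled postnatal day 0 which the protocol gives as 1-day-old mice. The adult group held 1 sample of 3-week-old mice (P21) and 2 samples of 8-week-old mice (P56 sample 1 and P56 sample 2). No mutation or treatment was named in the labels of any of these 5 samples. The labels did not say how many animals each sample held, so the tests measured the spread between samples, which may be in part technical.

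Pax2 and Pax8 belong to the family of paired box transcription factors, and Lhx1 is a LIM homeodomain transcription factor. All 3 are active early in kidney development. Pax2 and Pax8 act in the intermediate mesoderm, the ureteric bud and the nephron progenitors, and Lhx1 marks the renal vesicle, where it is required for the patterning of the early nephron. In the mature kidney Pax2 is best known from the collecting duct and Pax8 from most of the tubule epithelium. The levels below are shares of nuclei with an open peak, a measure of accessibility and not of transcription.

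In the annotation Pax2 occupied chr19:44756045-44837871 on the plus strand, Pax8 chr2:24420560-24475599 on the minus strand and Lhx1 chr11:84518284-84525535 on the minus strand. The gene bodies spanned 81.8 kb, 55.0 kb and 7.3 kb, and held 25, 20 and 3 of the peaks of their windows. Most members therefore lay outside the genes. Counting peaks that overlapped the gene body or reached within 50 kb of the start gave 40 for Pax2, 32 for Pax8 and 22 for Lhx1. Other protein coding genes start in the same windows, Hif1an and Slf2 beside Pax2, Il1f5, Il1f10, Il1rn and Psd4 beside Pax8, and Aatf beside Lhx1. Which gene a distal peak acts on was not measured.

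The sequences of 7 named peaks are shown as examples of the stage and cluster patterns described below. Each is the central 300 bases of the peak, read from the plus strand of mm10. Capitals mark matches, on either strand, to 10 motifs. In these 7 sequences only 4 of them were found, GTTAAT for HNF1 factors, TAATTA for LIM homeodomain factors, GCCNNNGGC for TFAP2 factors and GGAATG for TEAD factors. The other 6 were GTCACGC (PAX), GTATCA (Six2 and its relatives), ACAAAG (SOX), GCGTGGG (WT1 and EGR), CAAAGTCCA (HNF4) and TGANTCA (AP-1). GTTAAT and TAATTA can overlap, as they did at the start of the last sequence.
Pax2 peak -85.5 kb (mm10 chr19:44670395-44670694, plus strand): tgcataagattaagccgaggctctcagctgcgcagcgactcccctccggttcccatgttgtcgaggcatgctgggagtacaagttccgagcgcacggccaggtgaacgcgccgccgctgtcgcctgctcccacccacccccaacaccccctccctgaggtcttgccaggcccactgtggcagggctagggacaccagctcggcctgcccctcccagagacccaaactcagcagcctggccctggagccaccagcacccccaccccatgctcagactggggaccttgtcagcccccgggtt
Pax2 peak -5.0 kb (mm10 chr19:44750914-44751213, plus strand): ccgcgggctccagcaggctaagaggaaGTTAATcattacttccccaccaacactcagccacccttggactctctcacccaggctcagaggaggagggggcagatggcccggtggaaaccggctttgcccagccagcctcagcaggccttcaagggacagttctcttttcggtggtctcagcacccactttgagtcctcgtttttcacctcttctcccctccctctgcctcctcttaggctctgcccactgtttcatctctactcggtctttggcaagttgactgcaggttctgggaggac
Pax2 peak +137.5 kb (mm10 chr19:44893365-44893664, plus strand): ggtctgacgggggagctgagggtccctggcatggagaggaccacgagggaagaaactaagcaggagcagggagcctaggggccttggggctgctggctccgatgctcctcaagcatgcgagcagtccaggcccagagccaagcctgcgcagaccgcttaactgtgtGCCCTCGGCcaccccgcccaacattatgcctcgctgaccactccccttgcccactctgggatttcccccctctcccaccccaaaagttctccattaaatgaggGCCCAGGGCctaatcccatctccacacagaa
Pax8 peak +47.1 kb (mm10 chr2:24428399-24428698, plus strand): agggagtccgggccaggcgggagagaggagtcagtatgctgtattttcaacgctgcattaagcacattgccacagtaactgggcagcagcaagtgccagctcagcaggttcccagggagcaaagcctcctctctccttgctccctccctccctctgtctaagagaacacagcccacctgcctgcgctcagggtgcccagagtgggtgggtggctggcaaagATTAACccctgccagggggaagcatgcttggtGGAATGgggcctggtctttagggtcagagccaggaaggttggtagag
Pax8 peak -3.6 kb (mm10 chr2:24479096-24479395, plus strand): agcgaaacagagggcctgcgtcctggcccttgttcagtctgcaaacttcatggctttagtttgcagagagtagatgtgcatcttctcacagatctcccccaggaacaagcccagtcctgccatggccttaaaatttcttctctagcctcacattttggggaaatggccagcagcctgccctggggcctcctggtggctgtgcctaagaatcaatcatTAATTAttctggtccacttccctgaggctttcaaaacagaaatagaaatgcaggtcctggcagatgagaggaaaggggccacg
Lhx1 peak -134.1 kb (mm10 chr11:84659469-84659768, plus strand): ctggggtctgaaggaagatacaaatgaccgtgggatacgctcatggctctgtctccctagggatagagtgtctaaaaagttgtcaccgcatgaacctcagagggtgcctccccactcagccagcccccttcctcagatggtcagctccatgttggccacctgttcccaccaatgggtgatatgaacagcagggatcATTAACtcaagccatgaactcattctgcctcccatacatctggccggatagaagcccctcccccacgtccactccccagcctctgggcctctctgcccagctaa
Lhx1 peak -108.0 kb (mm10 chr11:84633353-84633652, plus strand): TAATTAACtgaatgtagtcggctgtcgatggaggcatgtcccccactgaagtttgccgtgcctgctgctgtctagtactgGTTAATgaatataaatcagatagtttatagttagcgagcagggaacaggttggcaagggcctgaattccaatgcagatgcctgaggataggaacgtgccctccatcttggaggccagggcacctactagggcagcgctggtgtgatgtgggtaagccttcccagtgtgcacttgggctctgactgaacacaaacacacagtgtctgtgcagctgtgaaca
The peaks at -85.5 kb of Pax2, +47.1 kb of Pax8 and -134.1 kb of Lhx1 were higher at P0 in nephron progenitors and the loop of Henle, and those at -5.0 kb of Pax2 and -3.6 kb of Pax8 lie just upstream of the starts. The Pax2 peak at +137.5 kb was widest open in principal cells and the Lhx1 peak at -108.0 kb in the distal convoluted tubule. The Pax2 -85.5 kb window held none of the 10 motifs searched. GCCNNNGGC lay in the central 300 bases of 21 of 96 Pax2 peaks (21.9%), 13 of 82 Lhx1 peaks (15.9%) and 7 of 83 Pax8 peaks (8.43%), and in 8.97% of the 300693 peaks of the series that could be read. GTTAAT lay in 9 Pax2 peaks (9.38%), 12 Pax8 peaks (14.5%) and 14 Lhx1 peaks (17.1%), against 11.8% of all peaks. TAATTA was found in 27 of the 261 members (10.3%) and in 8.87% of all peaks. GTCACGC, letters from the PAX motif, lay in only 2 of the 261 members (0.766%) and in 0.892% of all peaks. GTATCA lay in 6.90% of the members and 7.16% of all peaks, ACAAAG in 21.1% and 24.9%, GCGTGGG in 1.92% and 2.02%, GGAATG in 17.6% and 18.8%, TGANTCA in 10.3% and 10.5% and CAAAGTCCA in 0 members and 0.802%. These are matches of letters, not binding sites, and the shares were compared by description only.

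The deposited annotation assigned nuclei to 13 main clusters, which were nephron progenitors (NP), podocytes, the convoluted (PCT) and the straight (PST) proximal tubule, the loop of Henle (LOH), the distal convoluted tubule (DCT), the connecting tubule (CNT), the principal cells (PC) and intercalated cells (IC) of the collecting duct, endothelial cells, immune cells and 2 stromal clusters. The 5 samples held 3361 to 7129 nuclei and 16980853 to 43794155 open calls. The median nucleus had 6203 and 6737 open peaks at P0 and 4153, 3371 and 6178 in the P21 sample, P56 sample 1 and P56 sample 2. Raw shares depend on this depth. The tests compared open calls relative to the total of each sample and cluster, and fewer calls were made when nuclei were thinned to 1000 open peaks. Between 24 and 73 barcodes were shared by each pair of samples, at most 1.218% of the smaller sample. The marker genes of a cluster were summed highest in that cluster for 11 of the 13 clusters at P0 and for 12 in adult. CNT was an exception at P0, where its markers stood at 73.27 per 1000000 open calls and at 105.4 in DCT. Stroma 1 was an exception at both stages, below stroma 2 for the markers they share. Only 195 of the adult nuclei were called NP, against 2037 at P0. Summed over Uncx, Cited1 and Six2, the NP markers stood at 132.8 to 133.1 per 1000000 open calls in the P0 NP cluster and at 12.97 to 39.6 in the adult one. A list of 14 tubule markers joined the genes used for the tubule and collecting duct clusters. They were Slc34a1, Slc5a2, Kap, Slc22a7, Slc12a1, Umod, Slc12a3, Pvalb, Trpv5, Calb1, Aqp2, Fxyd4, Atp6v1g3 and Atp6v0d2. Their sum stood in the NP cluster at 145.2 to 145.3 at P0 and 276.7 to 358 in adult. The adult NP cluster is therefore named below by the label it was given, with its progenitor markers low.

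At its start, Pax2 was open in a large share of nuclei in NP and in every tubule and collecting duct cluster. Its start peak (chr19:44755465-44757395, over the first coding exon) was widest open at P0 in PST, in 48.2% and 36.6% of nuclei of the 2 samples. DCT, CNT, NP, PC, LOH and IC followed with mean shares between 42.0% and 33.8%, and each overlapped its neighbour in this order. PCT came next with 27.4% and 22.3%, below both IC samples. Podocytes stood at 10.4% and 13%, and the stromal and endothelial clusters at means of 5.83% to 7.10%. In adult kidney the order was led by PC, with 50.5%, 25.6% and 58.5% in the P21 sample, P56 sample 1 and P56 sample 2, and the samples of all 8 clusters from PC to LOH overlapped with their neighbours. PST nuclei were among the deepest at P0, with a median of 10199 and 8547.5 open peaks, and thinned to 1000 open peaks CNT led with a mean share of 6.34% and PST had 4.67%. P56 sample 1, the shallowest sample, had the lowest share of the adult samples in 12 of the 13 clusters.

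Pax8 showed the same broad tubular pattern at its start (chr2:24475166-24476110, over a UTR exon). PST led at P0 with 42.2% and 23.2%, a spread wide enough to overlap PCT, CNT, IC, NP and PC, whose means ran from 29.5% to 27.2%. LOH (23.6% and 24.7%) lay below PC (26.1% and 28.3%), and podocytes (11.7% and 11.6%) lay below DCT (27.4% and 19.3%). Endothelial, stromal and immune clusters stood at means of 1.38% to 2.06%. In adult, PST again had the highest mean, with 28.2%, 19.0% and 44.6%, and every cluster overlapped its neighbour in the order. Thinned to 1000 open peaks, PCT led at P0 with 4.44% and PST had 3.49%. A further annotated start of Pax8, at +29.9 kb inside the gene, was open in at most 15.4% of nuclei at P0 (PST, mean of 2 samples) and was not called in PCT or PST, the 2 clusters in which it could be tested.

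The start of Lhx1 was widest open in the proximal tubule and DCT, and LOH fell in the order between P0 and adult. Its start peak (chr11:84525148-84526455) also covers the start of the antisense RNA Lhx1os, so the genes cannot be told apart here. At P0 PST (27.7% and 35.7%), DCT (33.3% and 22.8%) and PCT (29.2% and 26%) overlapped at the top, and IC (22.5% and 23.2%) and LOH (18.7% and 23.6%) followed. NP nuclei were open in 11.2% and 17.5%. In adult kidney PCT (26.1%, 19.2% and 35.5%), PST and DCT kept the top of the order, while LOH, the fifth cluster at P0, was the twelfth with 4.32%, 0.384% and 2.43%. Thinned to 1000 open peaks, DCT led at P0 with 4.76%, PST had 3.42%, and the mean share in LOH was 2.92% at P0 and 0.447% in adult.

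**Figure D1:**
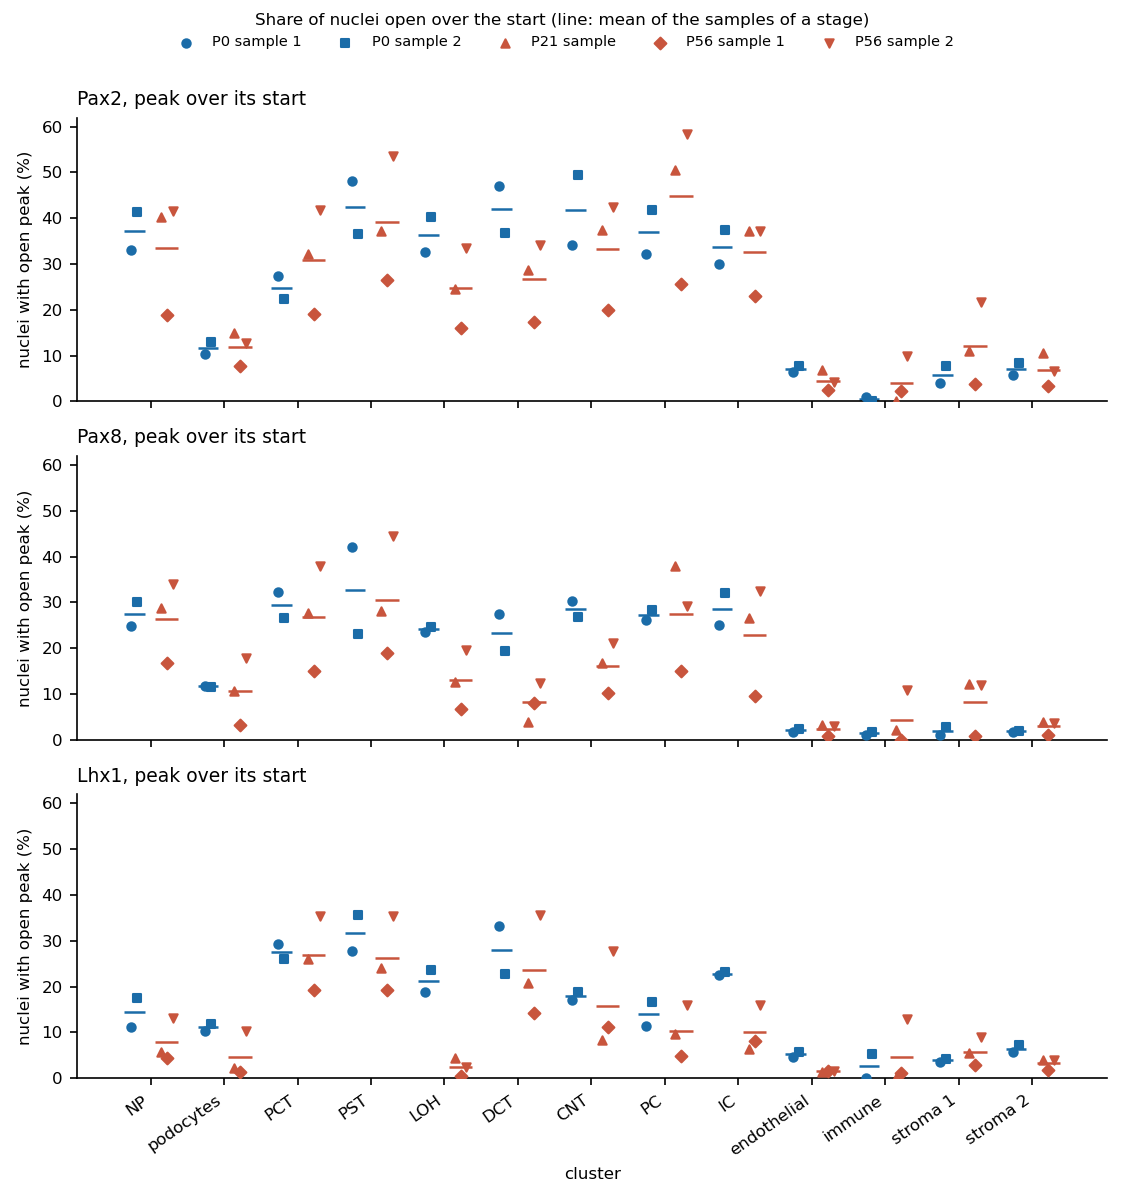
Percent of nuclei with an open peak over the start of each gene (vertical axis) in the 13 clusters (horizontal axis), with 1 point per sample and a line at the mean of the 2 P0 (blue) or 3 adult (red) samples. Lhx1 in LOH is the cluster in which the P0 points (18.7% and 23.6%) and the adult points (0.384% to 4.32%) lie farthest apart.

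Within clusters, P0 and adult were compared with the quasi-likelihood test of edgeR on open calls summed per sample, over all peaks, with Benjamini-Hochberg adjustment, and positive log2 differences mean higher at P0. Over all 13 clusters 18% of the tested peak and cluster pairs of the series were called higher at P0 and 16% higher in adult. The Lhx1 start peak was higher at P0 in 2 of the 10 clusters tested. In LOH the difference was the largest toward P0 of any start peak, with 18.7% and 23.6% at P0 and 4.32%, 0.384% and 2.43% in adult (edgeR log2 difference 2.32, SE 0.36, adjusted p = 6.9e-06). The groups did not overlap, and the log2 difference stayed at 1.82 to 2.81 when each sample was left out. In podocytes the shares were 10.4% and 11.9% at P0 and 2.13%, 1.27% and 10.3% in adult (edgeR log2 difference 1.63, SE 0.50, adjusted p = 0.029), with P56 sample 2 almost at the P0 level, and the call was lost without the P21 sample or without P56 sample 1 (log2 1.07 to 2.37).

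The Pax2 and Pax8 start peaks passed the test only in the other direction. Pax2 was higher in adult in 4 of 12 tested clusters. In PC its shares were 32.2% and 41.7% at P0 and 50.5%, 25.6% and 58.5% in adult (edgeR log2 difference -0.69, SE 0.15, adjusted p = 0.0015), and in PCT 27.4% and 22.3% at P0 and 32.2%, 19% and 41.8% (edgeR log2 difference -0.66, SE 0.22, adjusted p = 0.034). In both clusters P56 sample 1 lay below the P0 samples and the other 2 adult samples lay above them. In LOH the raw shares ran the other way, with 32.6% and 40.2% at P0 and 24.6%, 15.9% and 33.5% in adult, yet relative to all open calls the peak was higher in adult (edgeR log2 difference -0.53, SE 0.22, adjusted p = 0.044). This LOH call was lost in 8 of 10 alternatives, among them DESeq2 size factors, DESeq2, no filter and thinning, and its log2 difference lay between -0.67 and -0.04 over the 10. The median LOH nucleus had 6998 open peaks at P0 and 3352 in adult. In stroma 1 the shares were 3.91% and 7.74% at P0 and 11.1%, 3.74% and 21.8% (edgeR log2 difference -1.65, SE 0.38, adjusted p = 0.00017). Pax8 was higher in adult in 2 of 12 tested clusters, stroma 1, with 1.16% and 2.85% at P0 and 12.2%, 0.935% and 11.9% (edgeR log2 difference -2.61, SE 0.61, adjusted p = 0.00022), and stroma 2, with 1.76% and 1.92% at P0 and 3.88%, 1.12% and 3.78% (edgeR log2 difference -1.42, SE 0.50, adjusted p = 0.02). All 6 calls were lost without either P0 sample. The calls of Pax2 in PC and PCT were also lost after thinning (log2 -0.18 and -0.27). Those of Pax2 in PCT and LOH were also lost without the P21 sample, and those of Pax2 in PCT, LOH and stroma 1 and of Pax8 in stroma 2 without P56 sample 2. Over these fits the log2 difference ran from -0.55 to -0.83 for Pax2 in PC, -0.50 to -0.73 in PCT, -0.40 to -0.67 in LOH and -1.17 to -2.00 in stroma 1, and from -2.04 to -3.07 and -1.11 to -1.92 for Pax8 in stroma 1 and stroma 2.

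In stroma 1 the sum of the 14 tubule markers moved with these calls. It was 162.4 to 174.9 per 1000000 open calls at P0 and 218.5 to 407.8 in adult. Of the 14 genes 10 had a higher mean in adult, and none was at 0 in every sample. Slc12a3 alone had 21.7 and 25.8 at P0 and 119, 108 and 140 in adult, and in P56 sample 1 the rise of the sum rested on it. Atp6v0d2 went the other way, with 75.8 and 71.5 at P0 and 44.2, 30.3 and 29.8 in adult. P56 sample 1 had the lowest adult value of the list and also the lowest adult shares of Pax2 (3.74%) and Pax8 (0.93%). In stroma 2 the list stood at 136.8 to 144.2 at P0 and 152.7 to 255 in adult, of which Slc12a3 had 23.0 and 23.8 at P0 and 74.0, 51.1 and 85.6 in adult. The part of tubular chromatin in these results was not tested.

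The Pax2 window held the most peaks open in nephron progenitors. Of its 96 peaks, 57 reached a mean share of 5% in some cluster at P0 and 38 in adult, and NP was the leading cluster by raw share for 19 of the 57. A group of upstream peaks was open in progenitors and in the immature tubule and nearly closed in adult. At -85.5 kb (chr19:44669684-44671405, intergenic) the NP shares were 29.6% and 36.7% at P0 and 3.85%, 0% and 1.89% in adult (edgeR log2 difference 4.22, SE 0.46, adjusted p = 5.5e-18). The same peak in LOH had 22.5% and 25.9% at P0 and 0.761%, 0.288% and 1.1% (edgeR log2 difference 3.98, SE 0.34, adjusted p = 1.4e-09), and it was called higher at P0 in 6 of 6 tested clusters. A peak nearly closed in adult can pass the count filter through its P0 samples alone. This peak also met the rule of being called in the most clusters, so the 6 of 6 is not a separate result. The groups did not overlap in NP or LOH. The call in PCT was lost without either P0 sample, by DESeq2 and without a filter, that in PC without P0 sample 2 and without a filter, and that in stroma 2 by DESeq2. Its neighbour at -83.8 kb was also higher at P0 in 6 of 6 tested clusters, a count with the same limits. It had 21.6% and 17.5% at P0 and 1.98%, 0.326% and 1.38% in DCT (edgeR log2 difference 3.70, SE 0.62, adjusted p = 0.0015). The calls in DCT (log2 3.47 to 3.90) and PST (1.68 to 2.73) were lost without either P0 sample, the call in PC (0.84 to 1.15) without any 1 of these 2 and P56 samples 1 and 2, and the call in CNT by DESeq2.

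Closer to the gene, neighbouring Pax2 peaks went in opposite directions. At -2.4 kb NP nuclei were open in 26.2% and 28.9% at P0 and 9.62%, 7.78% and 1.89% in adult (edgeR log2 difference 1.85, SE 0.33, adjusted p = 1.6e-07). At -5.0 kb they were open in 11.8% and 13.9% at P0 and 34.6%, 18.9% and 39.6% (edgeR log2 difference -1.35, SE 0.25, adjusted p = 4.4e-07), and this peak was higher in adult in 5 of 11 tested clusters. The calls in LOH, PC and stroma 2 were lost without either P0 sample and the call in stroma 1 without P0 sample 1, and the value in PC turned to 0.098 after thinning. At -31.8 kb the NP shares were likewise higher in adult, with 6.01% and 8.56% at P0 and 25%, 16.7% and 20.8% (edgeR log2 difference -1.65, SE 0.31, adjusted p = 9.6e-07), while the peak at -35.8 kb was higher at P0 (edgeR log2 difference 0.94, SE 0.30, adjusted p = 0.006), a call lost without P56 sample 2 (log2 0.65 to 1.16). Without a filter on low counts the NP calls at -5.0 and -31.8 kb were lost (log2 -0.48 and -0.78). The adult NP cluster, in which the peaks at -5.0 and -31.8 kb stood high, also had the raised tubule markers. LOH markers in it were 94.44 to 99.44 per 1000000 open calls against 26.93 to 33.86 at P0. Whether the same nuclei carried both was not measured, and the part of the markers in these results was not tested.

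Inside and downstream of Pax2 the peaks divided by segment. The intronic peak at +78.7 kb was open in PC at both stages, with 27.9% and 28% at P0 and 17.5%, 15% and 23.1%, and did not pass the test there (edgeR log2 difference 0.10, SE 0.20, adjusted p = 0.73). In LOH the same peak had 18.9% and 18.2% at P0 and 2.54%, 1.44% and 1.77% (edgeR log2 difference 2.23, SE 0.30, adjusted p = 9.5e-07), and in CNT 25.9% and 25.7% at P0 and 2.41%, 3.74% and 2.26% (edgeR log2 difference 2.75, SE 0.42, adjusted p = 8.4e-05), so that its calls lay in the tubule clusters and not in PC. The peak at +137.5 kb, with 2 TFAP2 matches in its sequence, was open in PC in 23.9% and 30.9% at P0 and 20.4%, 18.1% and 22.6% and was not called there (edgeR log2 difference -0.08, SE 0.21, adjusted p = 0.81). A proximal tubule peak just past the 3' end, at +82.4 kb, was higher in adult, with 1.65% and 1.98% at P0 and 6.71%, 6.75% and 12.3% in PCT (edgeR log2 difference -2.59, SE 0.34, adjusted p = 0.00017), a call lost after thinning (log2 -1.48). The intronic peak at +14.8 kb was higher in adult in PC, with 3.81% and 4.29% at P0 and 7.77%, 9.77% and 10.8% (edgeR log2 difference -1.77, SE 0.37, adjusted p = 0.00085), a call lost without a filter on low counts (edgeR adjusted p = 0.28). A stromal peak at +152.3 kb had 18.4% and 23.6% at P0 and 2.22%, 1.87% and 0% in stroma 1 (edgeR log2 difference 3.38, SE 0.49, adjusted p = 8e-09) and was called higher at P0 in 5 of 5 tested clusters, of which PCT and endothelial cells were lost without either P0 sample. This peak too was named for its many calls and could pass the count filter through its P0 samples alone.

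**Figure D2:**
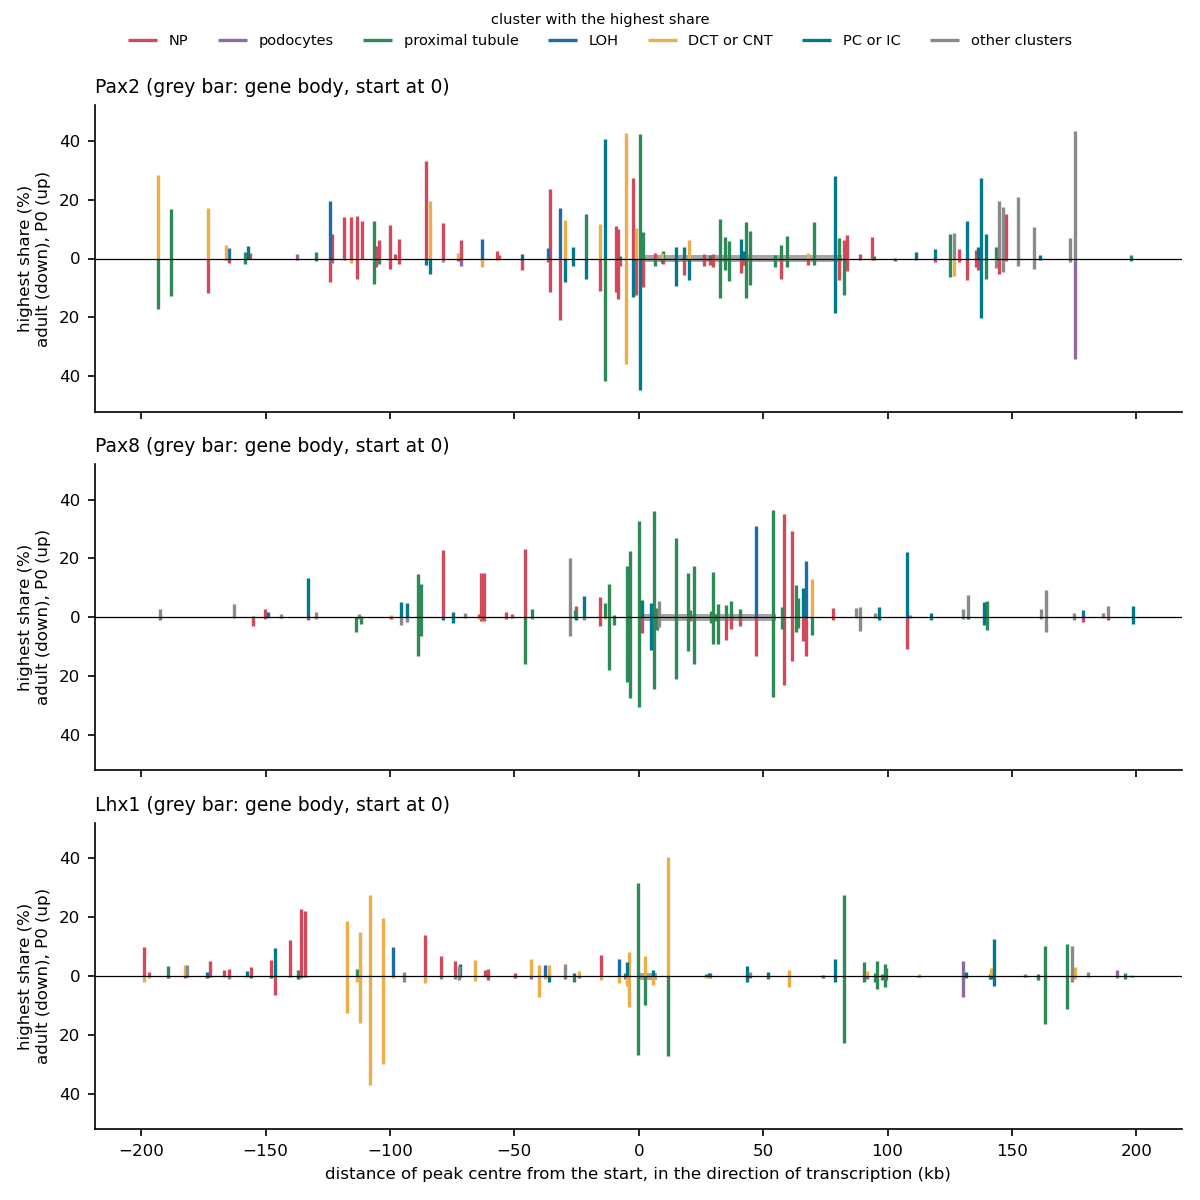
Highest mean share of open nuclei over the 13 clusters for every peak of the 3 windows, in percent, at P0 (upward bars) and in adult (downward bars), by distance from the start of the gene in kb. Colour gives the cluster with the highest share, and the bars at -85.5 kb of Pax2 and at -135.7 and -134.1 kb of Lhx1 reach 22% to 33.2% at P0 in NP and at most 2.33% in adult in any cluster.

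The Pax8 window was led by the proximal tubule, with PST the leading cluster for 14 of the 37 peaks that reached 5% at P0 and for 13 of 27 in adult. Both of its most open peaks at P0 lay inside the gene. At +53.9 kb (over a coding exon, chr2:24421369-24422095) PST nuclei were open in 33.7% and 39.3% at P0 and 30.4%, 16.3% and 34.4%, and at +6.1 kb in 34.9% and 37.5% at P0 and 24.8%, 14.5% and 33.6%, and neither was called in PST (edgeR adjusted p = 0.6 and 0.31). The P0 and adult samples overlapped or nearly met at both peaks. Toward the 3' end a group of peaks was open in NP, LOH and CNT at P0. The intronic peak at +47.1 kb had 30.7% and 31.6% at P0 and 5.33%, 2.30% and 2.32% in LOH (edgeR log2 difference 2.24, SE 0.28, adjusted p = 3.9e-07), the intergenic peak at +58.5 kb 25.4% and 25.9% at P0 and 3.55%, 2.98% and 4.20% (edgeR log2 difference 1.71, SE 0.25, adjusted p = 3.3e-06), and the peak at +61.8 kb, in a UTR of the neighbouring gene Psd4, 26% and 22.1% at P0 and 2.54%, 0.576% and 0.884% (edgeR log2 difference 3.35, SE 0.35, adjusted p = 2.3e-08). The NP call at +47.1 kb was lost without the P21 sample (log2 0.66). None of the 3 overlapped between stages in LOH, and the call of each held with every sample left out. In NP the peak at +58.5 kb was open at both stages, with 32.9% and 37.4% at P0 and 26.9%, 15.6% and 26.4% (edgeR log2 difference 0.52, SE 0.22, adjusted p = 0.05), a call lost without P0 sample 1, P56 sample 1 or P56 sample 2 (log2 0.43 to 0.72).

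The peak at +67.4 kb moved in opposite directions in 2 tubule segments. In LOH it had 20.8% and 17.5% at P0 and 1.27%, 0.0960% and 0.442% (edgeR log2 difference 4.28, SE 0.42, adjusted p = 1.1e-08), and in PCT 4.94% and 5.03% at P0 and 10.2%, 6.22% and 5.57% (edgeR log2 difference -0.95, SE 0.35, adjusted p = 0.047). The PCT call was lost without either P0 sample, the P21 sample or P56 sample 1 (log2 -0.65 to -1.17). It lies in a UTR of Psd4, and its gene was not assigned.

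Upstream of Pax8, peaks within 50 kb of each other differed in direction. At -45.8 kb NP nuclei had 22.1% and 24.2% at P0 and 1.92%, 1.11% and 0% (edgeR log2 difference 4.28, SE 0.57, adjusted p = 8e-13). This peak was higher at P0 in 4 of 10 tested clusters, and in PST it stayed open in adult, with 18.1% and 15.2% at P0 and 14.7%, 12.9% and 20.4% (edgeR log2 difference -0.19, SE 0.28, adjusted p = 0.83). At -3.6 kb NP nuclei had 3.29% and 5.17% at P0 and 32.7%, 17.8% and 28.3% (edgeR log2 difference -2.73, SE 0.32, adjusted p = 1e-15), and in the intron at +22.1 kb 2.13% and 4.08% at P0 and 13.5%, 8.89% and 22.6% (edgeR log2 difference -2.34, SE 0.42, adjusted p = 1.2e-07). The tubule markers stood in NP at 145.2 to 145.3 at P0 and 276.7 to 358 in adult, and their part in the NP results of Pax8 was not tested. In PCT, where both adult peaks were open at both stages, the differences were smaller, at log2 -0.88 and -0.83, and were lost without either P0 sample (log2 -0.77 to -0.93 and -0.76 to -0.92). Farther away, the peak at -132.8 kb over a coding exon of Cacna1b was called higher at P0 in 3 of 3 tested clusters, with 15% and 11.4% at P0 and 0.971%, 0.752% and 0% in PC (edgeR log2 difference 4.09, SE 0.60, adjusted p = 2.9e-05), and the call in PCT was lost without either P0 sample and that in PC without a filter on low counts (edgeR adjusted p = 0.25). This peak was named for its many calls and could pass the count filter through its P0 samples alone.

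Some upstream peaks of the Lhx1 window were open in NP and LOH at P0 and closed or nearly closed there in adult. At -135.7 kb (chr11:84660928-84661521) and -134.1 kb (chr11:84659242-84659995), both intergenic, NP nuclei were open at P0 in 20.8% and 24.6% and in 17.1% and 26.8%. None of the 195 adult NP nuclei was open at either peak, which allows a share of up to 1.538%. Taken against this limit of 3 counts over the group, the share at P0 was at least 14.7-fold higher at -135.7 kb and at least 14.2-fold higher at -134.1 kb, and at least 10.2-fold and 9.82-fold higher per open call (edgeR adjusted p = 1.8e-15 and 5.8e-15). Both peaks were nearly closed in adult LOH as well. LOH had 18.7% and 17% at P0 and 0%, 0% and 0.111% at -135.7 kb and 13.2% and 14.9% at P0 and 0%, 0.0960% and 0% at -134.1 kb, and PC had 19.0% and 16.6% at P0 and 0 of 581 nuclei in adult at -135.7 kb, where the share at P0 was at least 34.6-fold higher and at least 23.4-fold higher per open call. The PC call was lost without a filter on low counts (edgeR adjusted p = 0.26). Limits of this kind cover counting error only. In the adult NP cluster the NP markers were low and the tubule markers raised. The part of these markers in the NP results of Lhx1 was not tested.

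Between -117.4 and -98.8 kb lay a group of distal tubule peaks with mixed behaviour. At -108.0 kb (chr11:84633099-84633906) DCT nuclei had 25.5% and 29.8% at P0 and 38.6%, 22.8% and 50.0% (edgeR log2 difference -0.91, SE 0.25, adjusted p = 0.04) and CNT nuclei 10.4% and 22.8% at P0 and 28.9%, 20.1% and 42.1% (edgeR log2 difference -1.25, SE 0.27, adjusted p = 0.0015). At -102.7 kb CNT nuclei had 4.44% and 12.9% at P0 and 18.1%, 11.9% and 37.6% (edgeR log2 difference -1.78, SE 0.36, adjusted p = 0.00092). These peaks were higher in adult also in LOH (log2 -1.1 and -2.23), where the start peak was higher at P0, and after thinning both LOH calls were lost (log2 -0.16 and -1.65). The DCT call was lost without either P0 sample (log2 -0.85 to -1.15), and both CNT calls without P0 sample 1 (log2 -0.98 to -1.81 and -1.36 to -2.58). Their neighbours at -98.8 kb and -117.4 kb were higher at P0 in LOH, with 9.45% and 10.1% at P0 and 0.761%, 0% and 0.221% (edgeR log2 difference 4.28, SE 0.53, adjusted p = 2.9e-07) and 12.1% and 12.4% at P0 and 2.79%, 0.864% and 3.87% (edgeR log2 difference 1.25, SE 0.33, adjusted p = 0.0021).

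In the proximal tubule Lhx1 peaks were called in both directions. Of 33 tested Lhx1 peaks in PCT, 8 were higher in adult (16.3% of all peaks) and 6 at P0 (17.6%), and of 8 in PST none was higher in adult (9.04%) and 2 at P0 (6.99%). The peak at -198.8 kb was higher at P0 in both, with 2.92% and 2.69% at P0 and 0.774%, 0.529% and 0.566% in PCT (edgeR log2 difference 1.79, SE 0.44, adjusted p = 0.0068) and 9.64% and 8.04% at P0 and 0.752%, 1.06% and 1.70% in PST (edgeR log2 difference 2.62, SE 0.51, adjusted p = 0.0057). The P0 samples lay above the adult samples in both clusters, and both calls were lost without either P0 sample (log2 1.63 to 1.98 and 2.44 to 2.71). The intronic peak at +2.6 kb had 3.11% and 2.69% at P0 and 6.77%, 5.78% and 10.1% in PCT (edgeR log2 difference -1.74, SE 0.29, adjusted p = 0.00066). The peak at +163.1 kb, in an intron of Acaca, had 10.1% and 10.6% at P0 and 18.1%, 11.5% and 19.7% in PCT (edgeR log2 difference -1.02, SE 0.23, adjusted p = 0.004), and in LOH 5.51% and 4.45% at P0 and 0.508%, 0.288% and 0.995% (edgeR log2 difference 1.91, SE 0.45, adjusted p = 0.001). The PCT call at +163.1 kb was lost without P0 sample 1 (log2 -0.83 to -1.26), and after thinning both PCT calls were lost (log2 -1.16 at +2.6 kb and -0.77 at +163.1 kb). The peak at +82.7 kb, over a coding exon of Aatf, was open in PST in 27.7% and 27.7% at P0 and 14.3%, 13.8% and 28.6% and was not called (edgeR log2 difference 0.34, SE 0.22, adjusted p = 0.32). The widest open peak of the window at P0, at +11.8 kb with a mean of 40.6% in DCT, covers the start of Aatf and was left out of the naming rule, as were the peaks at -13.6 and +175.2 kb of Pax2, which cover the starts of AC138457.1 and Slf2. These 3 were picked out after their values were seen.

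**Figure D3:**
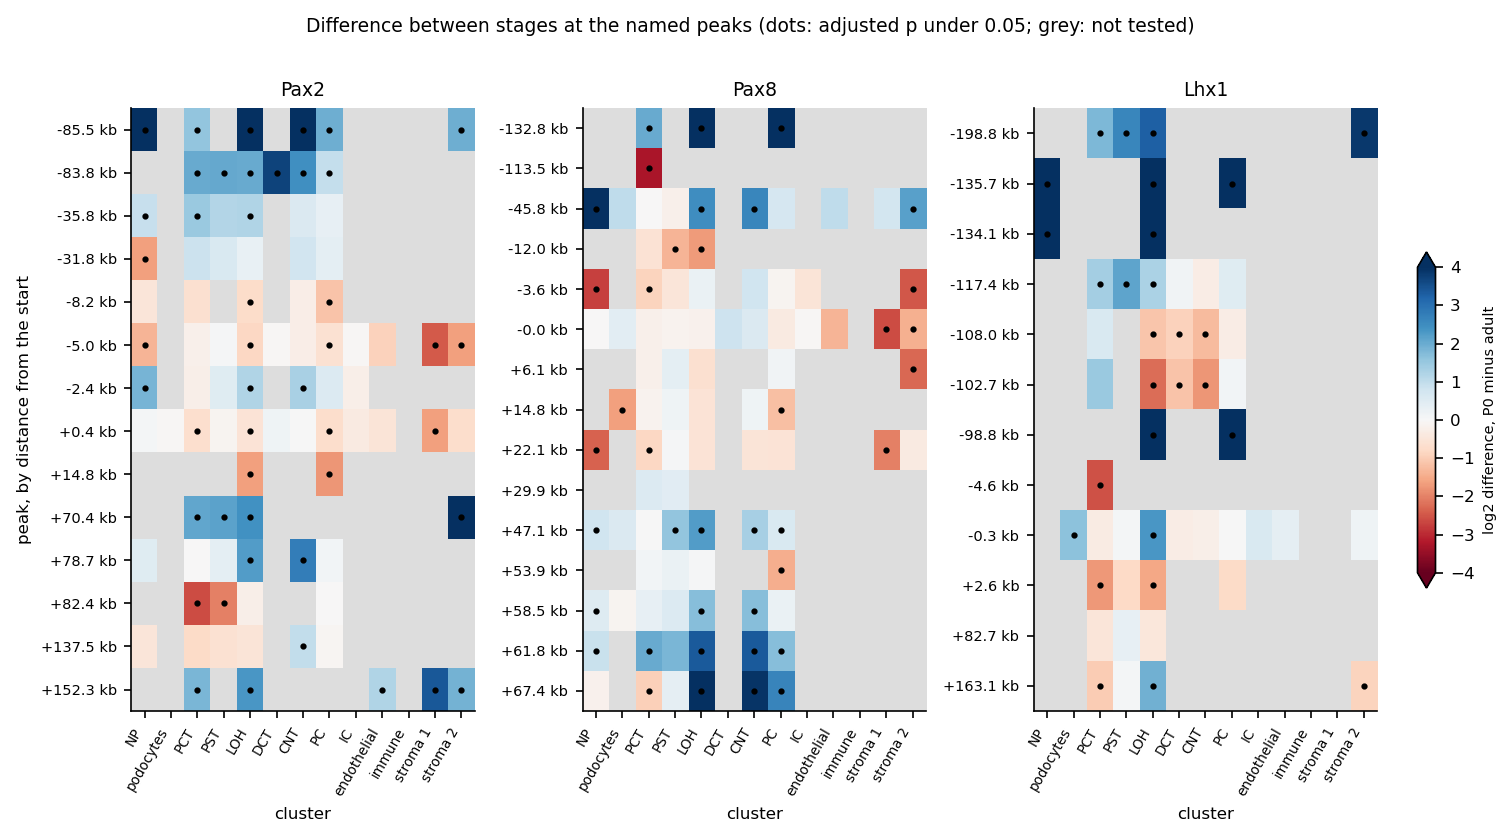
Log2 difference between P0 and adult (colour, blue higher at P0 and red higher in adult, ends of the scale at 4 and -4) for the named peaks of each gene (rows, by distance from the start) in the 13 clusters (columns). Dots mark an adjusted p under 0.05 by edgeR, grey cells were not tested, and the LOH column of Lhx1 holds both blue cells (start peak 2.32) and red ones (-102.7 kb, -2.23).

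Counted over the windows, higher at P0 was the more frequent call for each gene. Of 249 tested pairs of a Pax2 peak and a cluster, 66 were higher at P0 (26.5%) and 30 in adult (12%). Of 162 Pax8 pairs, 44 (27.2%) and 20 (12.3%) were called, and of 114 Lhx1 pairs 41 (36.0%) and 18 (15.8%), beside the 18% and 16% over all peaks. In all, 68, 51 and 53 peaks could be tested in some cluster, and the remaining 28, 32 and 29 had too few open calls. Calls in both directions, in different clusters, were made for 1, 1 and 2 peaks. Without P0 sample 1 the counts at P0 were 37, 26 and 27, and without P0 sample 2 they were 36, 27 and 22 for Pax2, Pax8 and Lhx1. The counts in adult were then 6, 4 and 5, and 8, 5 and 7. Without P56 sample 1 they were 48 for Pax2 and 33 for Pax8. A peak tested in several clusters counts once for each, so the pairs are not independent.

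LOH carried the largest part of these calls. There 70 of 121 tested members (57.9%) were higher at P0, with 29.9% of all peaks called, and 15 were higher in adult, with 24.4% of all peaks called. The median log2 difference of the members in LOH was 1.41 beside 0.11 over all tested peaks, and the Lhx1 members alone had 2.32. CNT had 14 of 35 members higher at P0 (all peaks 12.2%) and 2 in adult (10.4%). NP had 10 of 23 (20.4%) and 5 (19.2%), PCT 29 of 134 (17.6%) and 19 (16.3%), PST 6 of 59 (6.99%) and 2 (9.04%), and PC 10 of 58 (16.8%) and 10 (12.7%). DCT had 1 of 13 (1.13%) and 2 (2.6%), podocytes 1 of 11 (3.52%) and 1 (6.07%), and endothelial cells 1 of 21 (16.6%) and 1 (14.8%). Stroma 2 had 8 of 27 (26.5%) and 6 (23.7%). Stroma 1 had 1 of 10 (20.8%) and 5 (17%), and with DCT it was the only cluster with more calls in adult than at P0. In IC and immune cells none of 10 and 3 tested members was called by edgeR or DESeq2 or had an unadjusted p under 0.05, beside 0% and 0.108% of all peaks in IC and 0.0497% and 0.0995% in immune cells.

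In LOH the markers of 8 of 11 other cell types (NP, podocytes, PST, CNT, PC, endothelial, immune and stroma) were higher in both P0 samples than in every adult sample. The 3 NP markers summed to 67.48 to 75.28 per 1000000 open calls at P0 and 11.87 to 21.49 in adult, none at 0 in every sample, the 2 podocyte markers to 27.61 to 29.38 and 4.563 to 8.316 and the 2 stroma markers to 31.15 to 32.8 and 11.41 to 16.63. The LOH markers Slc12a1 and Umod summed to 99.11 to 124.8 at P0 and 439.5 to 526.8 in adult. In CNT the NP markers stood at 35.25 to 37.58 and 5.439 to 16.09, the podocyte markers at 20.49 to 21.41 and 5.027 to 13.6 and the stroma markers at 17.09 to 30.22 and 10.05 to 16.33. The LOH markers in CNT went the other way, at 25.06 to 28.97 at P0 and 59.82 to 77.42 in adult. The PCT, DCT, PC and CNT markers were also higher there in every adult sample than in both P0 samples. In PC the gene activity of Pax2 and Pax8, described below, was higher in adult, and the Lhx1 peak at -135.7 kb was higher at P0. Single Pax8 peaks in PC were called in both directions, 4 at P0 and 3 in adult. The NP markers in PC stood at 31.37 to 39.01 at P0 and 11.26 to 18.65 in adult, the podocyte markers at 20.16 to 21 and 5.828 to 12.88, the stroma markers at 20.63 to 23.89 and 9.198 to 13.37, and the LOH markers at 13.88 to 23.53 and 33.81 to 51.36. The part of these markers in the LOH, CNT and PC results was not tested.

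Gene activity, the open calls over the gene body and the 2 kb upstream of it per 1000000 open calls, gave 1 value per gene. Over all genes and clusters 14.2% of tested pairs were higher at P0 and 11.1% higher in adult. Lhx1 in LOH was 32.6 and 34.5 at P0 and 13.4, 7.40 and 10.0 in the P21 sample and both P56 samples (edgeR log2 difference 1.69, SE 0.24, adjusted p = 0.00022), a difference that remained called in all 10 alternatives. Its body holds only 3 peaks, so this value is largely that of the start. Pax8 in NP was 118 and 124 at P0 and 311, 189 and 217 (edgeR log2 difference -0.79, SE 0.15, adjusted p = 9.2e-06) and in stroma 1 29 and 33.5 at P0 and 184, 40.3 and 85.7 (edgeR log2 difference -1.53, SE 0.28, adjusted p = 0.00021), both called higher in adult in every alternative that could be fitted, in clusters whose tubule markers also stood higher in adult. Pax8 was also higher in adult in PC, endothelial cells and stroma 2 (log2 -0.47, -0.75 and -0.72). After thinning to 1000 open peaks the endothelial value was -0.11 and the stroma 2 value turned to 0.079, and neither was called. Pax2 was higher in adult in NP, PC and stroma 1 (log2 -0.43, -0.63 and -0.92) and higher at P0 in CNT, with 170 and 172 at P0 and 141, 132 and 111 (edgeR log2 difference 0.50, SE 0.16, adjusted p = 0.025). The CNT value turned to -0.09 when only peaks within 1 kb of the start were summed. Lhx1 was higher in adult in PCT and stroma 1 (log2 -0.43 and -1.26). Apart from Lhx1 in LOH and Pax8 in NP and stroma 1, each of these 9 calls was lost without at least 1 sample. Without P0 sample 1 all 9 were lost, and without P0 sample 2 all but Pax2 in stroma 1. Without the P21 sample 6 were lost, Pax2 in NP and stroma 1, Pax8 in endothelial cells and stroma 2, and Lhx1 in both clusters. Without P56 sample 2 Pax2 in CNT and stroma 1, Pax8 in stroma 2 and Lhx1 in PCT and stroma 1 were lost. The log2 values with 1 sample left out ran from -0.23 to -0.71 (Pax2 in NP), 0.37 to 0.63 (CNT), -0.55 to -0.71 (PC) and -0.62 to -1.25 (stroma 1), -0.38 to -0.59 (Pax8 in PC), -0.50 to -0.95 (endothelial cells) and -0.50 to -1.1 (stroma 2), and -0.35 to -0.50 (Lhx1 in PCT) and -1.11 to -1.49 (stroma 1). The tubule markers in endothelial cells summed to 134.2 to 136.4 at P0 and 179.9 to 231.7 in adult. Of these, Slc12a3 had 54.8 and 52.1 at P0 and 100, 110.5 and 109.4 in adult. The part of the markers in the result was not tested.

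An interaction tested whether the signed difference between stages in 1 cluster differed from the mean of the other 12, with the sample as a block. A cluster can lie above the others without a change of its own. Gene activity itself was not called for Pax8 in PCT (log2 -0.10) or for Pax2 and Pax8 in LOH (0.15 and 0.19). Over all genes and clusters 4.11% of pairs lay above and 4.58% below the other clusters. These shares are pooled over the 13 clusters and are not the shares within LOH or PCT, which can be larger. Lhx1 in LOH stood out with a log2 value of 1.85 (SE 0.21, edgeR adjusted p = 2.7e-10), and Lhx1 lay below the other clusters in PCT (-0.49, SE 0.15, edgeR adjusted p = 0.011) and stroma 1 (-1.36, SE 0.38, edgeR adjusted p = 0.017). Pax2 lay above them in CNT (0.80, SE 0.21, edgeR adjusted p = 0.011) and LOH (0.50, SE 0.16, edgeR adjusted p = 0.014). Pax8 lay above them in LOH (0.70, SE 0.15, edgeR adjusted p = 3.2e-04) and PCT (0.38, SE 0.14, edgeR adjusted p = 0.043) and below them in stroma 1 (-1.17, SE 0.27, edgeR adjusted p = 0.0029). Without the block, the calls of Lhx1 and Pax8 in LOH and stroma 1 held (edgeR adjusted p = 2.8e-07 and 0.030 for Lhx1, 0.026 and 0.017 for Pax8), and the other 4 were lost (edgeR adjusted p between 0.065 and 0.32). With each sample left out in turn Lhx1 in LOH stayed called, at log2 values of 1.51 to 1.96. The other 7 calls were lost without P0 sample 1, 5 of them (all but Pax8 in LOH and stroma 1) also without P0 sample 2, 4 (Pax2 in LOH, Pax8 in PCT and stroma 1 and Lhx1 in stroma 1) without the P21 sample and 2 (Pax2 in LOH and CNT) without P56 sample 2. In these fits Pax2 ran from 0.35 to 0.56 in LOH and 0.53 to 1.01 in CNT, Pax8 from 0.49 to 0.81 in LOH, 0.25 to 0.44 in PCT and -0.71 to -1.37 in stroma 1, and Lhx1 from -0.37 to -0.77 in PCT and -1.1 to -1.62 in stroma 1. In the remaining pairs of a gene and a cluster no difference from the other clusters passed the test.

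**Figure D4:**
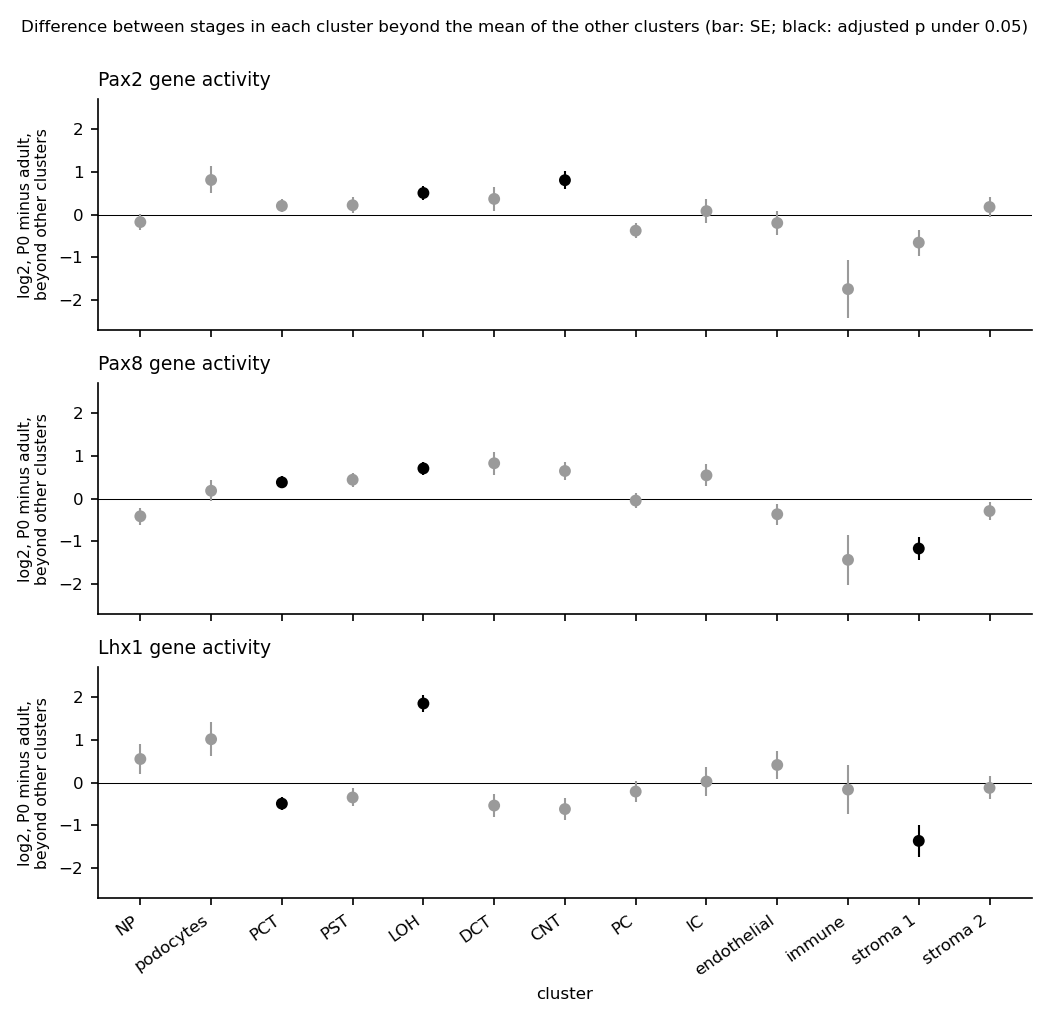
Log2 difference between P0 and adult in gene activity of each cluster beyond the mean of the other 12 clusters (points) with its standard error (bars), for the 3 genes. Black points have an adjusted p under 0.05 by edgeR, and Lhx1 in LOH, at 1.85, lies farthest above 0.

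Over the 26 combinations of cluster and stage, the profile of Pax8 was most like that of Emx2, a homeodomain factor of the urogenital system (Pearson r 0.935), with Gm572 (0.929), Pax2 (0.927) and Gm15638 (0.926) also among the 5 most alike of 22547 genes. The profile of Pax2 was most like 2 overlapping gene models named Igsf5 (0.954 and 0.953), then Fhod3 (0.936), Emx2 (0.933) and Bricd5 (0.931). Lhx1 had no gene as near to it. Its nearest were Rars2 (0.878), Gm28548 (0.854), Fuom (0.851), Hus1 (0.847) and Asb3 (0.843), and its r was 0.656 with Pax2 and 0.672 with Pax8. The 26 points share 5 samples and their depth, and the values describe likeness only.

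A list of 32 other genes of nephron induction and patterning was counted beside the members. In LOH 18 of 32 were higher at P0 (29.3% of all genes) and 7 in adult (22.8%). In NP 13 of 30 tested were higher at P0 (21%) and 7 in adult (18.5%), and in CNT 12 of 28 (15.3%) and 2 (9.74%). PCT had 9 of 32 (15.6%) and 4 (12.8%), PC 7 of 29 (17.2%) and 3 (12.4%), endothelial cells 9 of 30 (13.9%) and 2 (11.4%), stroma 1 8 of 27 (16.5%) and 9 (14%), and stroma 2 10 of 31 (20.8%) and 5 (16.6%). The genes called at P0 in NP included the progenitor factors Eya1, Six2, Osr1 and Wt1 and the ligand and receptors Gdnf, Ret and Gfra1. Those called in adult there included Cdh1, which encodes E-cadherin, the tubule factors Irx1, Irx3 and Pou3f3, and Emx2 and Wnt9b. Six2 is also one of the NP markers used above. The adult NP cluster had low NP markers and raised tubule markers, and their part in these calls was not tested. By gene, Gfra1 was higher at P0 in 9 of 12 tested clusters and Eya1 and Wt1 in 7 of 10, while Cdh1 was higher in adult in 6 of 12 and Wnt9b in 6 of 11.

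The members were also set beside the other genes of their families. Of the Pax family, 6 of 8 tested genes were higher at P0 in LOH (29.3% of all genes), and Pax2 and Pax8 were not called there. In PC the same 6 genes were higher at P0 (17.2% of all genes) and Pax2 and Pax8 were higher in adult (12.4%). The 6 genes were low in adult LOH, with means of 1.77 (Pax9) to 27.4 (Pax5) per 1000000 open calls. Pax2 and Pax8 had 126 and 125 there. In adult PC the 6 had 2.94 (Pax1) to 41.85 (Pax5). Genes as low as Pax9 can pass the count filter through their P0 samples alone, so no contrast with Pax2 and Pax8 was drawn. Pax5 was higher at P0 in 9 of 12 tested clusters and Pax7 in 6 of 7, and Pax4 had too few open calls to be tested in any. Of 12 LIM homeobox genes, 10 were higher at P0 in LOH, Lhx1 among them, beside 29.3% of all genes. Adult means of these 10 in LOH ran from 0.89 (Isl1) to 26.1 (Lmx1b), with 10.3 for Lhx1. Genes as low as Isl1 can likewise pass the count filter through their P0 samples alone, so the 10 of 12 was not read as a result about the family. Lmx1b, a podocyte factor, was higher at P0 in 10 of 12 tested clusters, and its level was highest in podocytes at both stages, with 219.2 per 1000000 open calls at P0 and 278.6 in adult.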

How the data were processed

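Single nuclei ATAC-seq was analysed in the 2 P0 and 3 adult samples of the series. According to the study's methods and the processing notes, the authors aligned reads to mm10 with Cell Ranger ATAC 1.1.0, filtered nuclei, clustered them after batch correction, named the clusters from marker genes, called peaks per cluster over all samples with MACS2 and deposited a binarized matrix of nuclei by peaks. The deposited matrix values are counts of 0 or 1 per nucleus and peak, and the deposited cluster labels were used as given. Peaks were called on pooled stages, so a peak of a small cluster at 1 stage may be missing from the list. No doublet caller was run.

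Open calls were summed per sample and cluster (65 sums, at least 20 nuclei each) and P0 was tested against adult within each cluster with edgeR 4.0.16 (quasi-likelihood test, TMM, minimum count 10 and minimum total 15) over all peaks or all genes, at an adjusted p of 0.05. Genes and starts came from GENCODE M21. Gene activity summed peaks over the gene body and 2 kb upstream. The interaction fit had the sample as a block within stage. P0 and adult samples came from different mice and were not paired. Named peaks were those over a start, the 6 other peaks with the highest share per gene, and up to 5 per gene and direction called in the most clusters, leaving out peaks over the start of another gene. The alternatives were DESeq2 1.42.0, its size factors, no filter, nuclei thinned to 1000 open peaks, a minimum of 50 nuclei, a window of 50 kb, start peaks only and each sample left out. The window of 50 kb also kept all peaks over the gene body. Depth was 16980853 to 43794155 open calls per sample. The members, motifs and gene lists were chosen with earlier results of these data known. Single cell RNA-seq and bulk ATAC-seq samples of the series were not used here. Some genes that met the naming rules are not reported here.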

Additional observations from a re-analysis of the deposited data

Results flagged for a closer look

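In 8 combinations of a gene and a cluster the difference in gene activity between P0 and adult differed from the mean of the other 12 clusters. These came from 3 genes in 13 clusters, by the interaction test of edgeR with Benjamini-Hochberg adjustment. Over all genes 4.11% of pairs lay above the other clusters and 4.58% below, pooled over the 13 clusters. The shares within a single cluster such as LOH or PCT can be larger and are not given here, so these calls cannot be taken as rare there. For Lhx1 the log2 value was 1.85 in LOH, -0.49 in PCT and -1.36 in stroma 1. For Pax2 it was 0.80 in CNT and 0.50 in LOH. For Pax8 it was 0.70 in LOH, 0.38 in PCT and -1.17 in stroma 1. LOH was above the other clusters for all 3 genes, and stroma 1 was below them for Lhx1 and Pax8. In LOH the Pax2 call was lost without the block (edgeR adjusted p = 0.11). Gene activity of Pax2 and Pax8 was itself not called in LOH (log2 0.15 and 0.19). Only the Lhx1 value in LOH stayed past the threshold with each of the 5 samples left out (1.51 to 1.96).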

How the results depend on the processing

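Counts of calls changed with the number of samples, the depth kept and the width of the window. Pairs of a peak and a cluster higher at P0, 66, 44 and 41 for Pax2, Pax8 and Lhx1, were 111, 78 and 82 without a filter, 9, 6 and 4 after thinning, 22, 13 and 10 in a window of 50 kb, and 36 to 84, 26 to 61 and 22 to 60 with 1 sample left out. Pairs higher in adult, 30, 20 and 18, were 18, 12 and 8 by DESeq2, 33 and 35 without a filter for Pax8 and Lhx1, 0 for each gene after thinning, 7 in the 50 kb window for Lhx1, and 6 to 48, 4 to 33 and 5 to 27 with 1 sample left out. Start peaks higher at P0 went from 0 to 1 cluster without a filter for Pax2 and Pax8, and for Lhx1 from 2 clusters to 1 by DESeq2 or thinning and to 1 to 2 with 1 sample left out. Start peaks higher in adult went for Pax2 from 4 to 2 without a filter, 0 thinned and 0 to 6 with 1 sample left out, for Pax8 from 2 to 1 by DESeq2, 0 thinned and 0 to 3, and for Lhx1 from 0 to 1 without a filter and 0 to 1. Gene activity higher at P0 went for Pax2 from 1 cluster to 0 by DESeq2, without a filter, thinned or with start peaks only and 0 to 1 with 1 sample left out, for Pax8 from 0 to 0 to 1 and for Lhx1 from 1 to 1 to 2. Gene activity higher in adult went for Pax2 from 3 to 1 by DESeq2, 0 thinned, 5 with start peaks only and 0 to 5 with 1 sample left out, for Pax8 from 5 to 2, 1, 3 and 2 to 5, and for Lhx1 from 2 to 1 with DESeq2 size factors, 0 by DESeq2, 0 thinned and 0 to 2. Interaction calls went for Pax2 from 2 to 0 without the replicate block and 0 to 3 with 1 sample left out, and for Pax8 and Lhx1 from 3 each to 0 to 7 and 1 to 4; without the block Pax8 and Lhx1 had 2 each. No paired analysis of the stages was possible because P0 and adult samples came from different mice.

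Of 113 calls of named peaks, 111 held with DESeq2 size factors, 87 by DESeq2, 76 without a filter and 112 with a minimum of 50 nuclei, and 14 of 30 that could be fitted held after thinning. In all, 4 values changed direction, after thinning at -5.0 kb of Pax2 in PC (0.098) and -8.2 kb in LOH (0.40) and for Pax8 gene activity in stroma 2 (0.079), and with start peaks only for Pax2 gene activity in CNT (-0.090). The cause was not tested. Start shares in the leading cluster fell with thinning to 1000 open peaks, at P0 from 42.4% to 4.67% (Pax2, PST), 32.7% to 3.49% (Pax8, PST) and 31.7% to 3.42% (Lhx1, PST), and in adult from 44.9% to 9.43% (Pax2, PC), 30.6% to 4.31% (Pax8, PST) and 26.9% to 4.52% (Lhx1, PCT).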

Other observations

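Some wide open peaks of the windows cover the start of another gene and were kept out of the report's naming rule. The Pax2 peak at -13.6 kb, over the start of the noncoding gene AC138457.1 and 2210 bases wide, was open in NP in 25.5% and 31.8% at P0 and 46.1%, 28.9% and 47.2% in adult and in PCT in 33.6% and 33.6% at P0 and 43.3%, 25.9% and 55.3%. The adult samples were wider apart than the P0 samples in both clusters. In stroma 1 it had 2.61% and 4.28% at P0 and 13.3%, 0.935% and 17.8%, with P56 sample 1 below both P0 samples. This peak was chosen after its values were seen, and its gene was not assigned.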
